A study of Mus musculus with 4 samples.

Results

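Leukocyte adhesion molecules and barrier genes of the vessel wall were followed in thyroid RNA after blockade of PD-L1, a surface ligand that restrains T cells. The group comprised 10 genes chosen by symbol, of 16218 genes in the deposited count table, and each of the 10 was present and tested. They were 4 leukocyte adhesion genes (Icam1, Vcam1, Selp, Sele), 3 junction and barrier genes (Pecam1, Cdh5, Cldn5), the VEGF receptor genes Kdr and Flt4, and Prox1, the transcription factor gene of lymphatic endothelium. The comparison asks which genes differ in the thyroid under PD-L1 blockade. The samples were thyroids from mice of the NOD.H-2h4 strain, which is prone to thyroid autoimmunity, injected 3 times a week for 2 weeks. There were 2 mice given isotype control IgG and 2 given an anti-PD-L1 antibody, with 1 poly(A)-selected library each. A batch field of the labels holds a clone string that differs in each library, LTF2 and LTF3 for IgG and 10F.9G2 and 10F.9G3 for anti-PD-L1. Whether these name 4 separate clones cannot be told from the labels, and the field and the group cannot be told apart. The mice had an age and a sex not given in the sources used here. Where a fit is reported, the p-value weighs the group difference against the spread between these samples.

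Leukocytes leave the blood in steps. Selectins on activated endothelium (the products of Selp and Sele) slow them, integrins on the leukocyte then bind ICAM-1 and VCAM-1, and the cells pass the junctions that VE-cadherin, PECAM-1 and claudin-5 hold together. Inflammatory cytokines such as TNF and interferon gamma are known to induce the adhesion genes, while VEGFR2 (Kdr) and VEGFR3 (Flt4) carry growth signals of blood and lymphatic vessels. The thyroid is a densely vascularized gland in which each follicle lies against capillaries.

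Total counts ranged from 75591923 to 79663374.5 per library. Tg, the thyroglobulin gene that defines thyroid follicular tissue, took 14.6% to 16.9% of counts in 3 libraries and 4.34% in anti-PD-L1 replicate 1. That library also had 1.40 CPM (counts scaled to library size, TMM-normalized) of Xist against 67.7 to 72.7 CPM in the others, so its mouse differed in sex by RNA. Skeletal muscle genes were abundant in each library, with a summed level of 27956 to 70266 CPM over 12 genes. All 30 genes of a general endothelial list were present, with a summed level of 679 and 611 CPM with IgG and 521 and 744 CPM with anti-PD-L1. In whole tissue, fewer cells of a type and less RNA per cell cannot be told apart.

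Vcam1 had the largest difference among the 10 genes, with a mean of 15.6 CPM ± 10.9 (SD, n = 2) under IgG and 70.4 CPM ± 4.90 (SD, n = 2) under anti-PD-L1. Cldn5 had lower values in both anti-PD-L1 libraries, at 11.6 CPM versus 18.3 CPM on average. Icam1 was the most abundant gene per exon length and differed by 1.25-fold, and Pecam1, Cdh5 and Flt4 differed by less than 10% between group means. edgeR's quasi-likelihood test, adjusted over all genes, called 0 of the 10 genes higher and 0 lower, where it called 0% of 16217 genes (smallest adjusted p = 0.0635). At an unadjusted edgeR p under 0.05, Vcam1 was higher and Cldn5 lower, where 4.96% of genes tested were higher and 1.1% lower at that level (6.06% in either direction). DESeq2 called the same pair, 1 higher and 1 lower, where it called 2.93% of genes tested higher and 0.327% lower (3.26% in all). limma voom called 0 of them, where it called 0% of all genes. The median log2 fold change of the 10 genes was −0.015, with 5 above 0 and 5 below, and that of all genes tested was 0.00021. Both anti-PD-L1 values exceeded both IgG values for 2 of the 10 genes, Icam1 and Vcam1, where 16.5% of genes tested had that order. Both were below for 2, Cldn5 and Prox1, where 13.1% had that order. The 4 of 10 genes without overlap compare with 29.6% of genes tested. With 2 libraries a group, an exact permutation test of a single gene cannot go below p = 0.33.

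**Figure D1:**
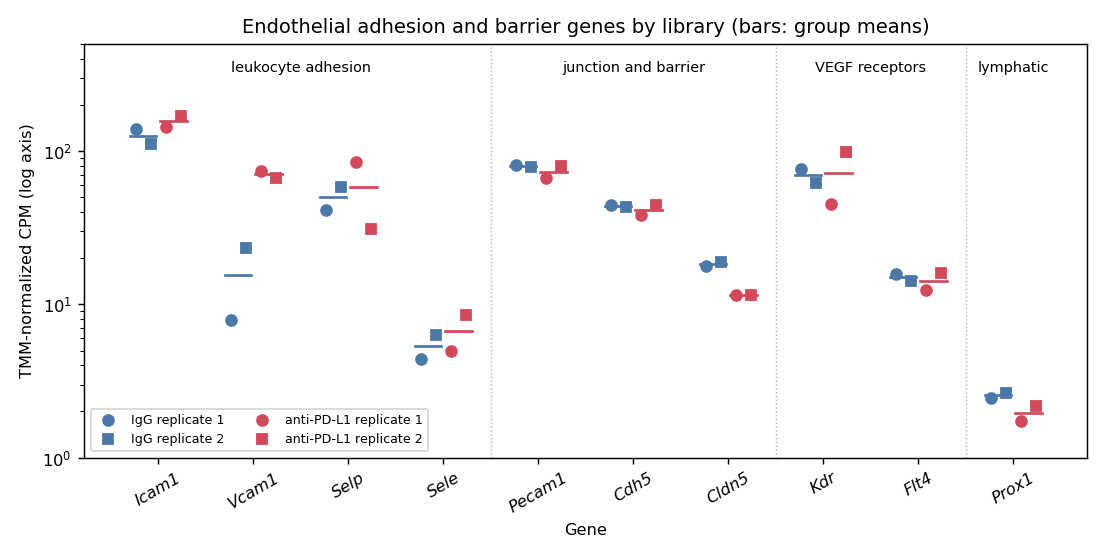
Normalized level of each gene in each library, in CPM on a log axis, with IgG libraries in blue, anti-PD-L1 libraries in red and horizontal bars at the group means. Vcam1 lay at 7.87 and 23.3 CPM with IgG and at 73.9 and 66.9 CPM with anti-PD-L1, while the points of Pecam1, Cdh5 and Flt4 overlapped between groups.

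Per kilobase of exon, which allows levels of different genes to be compared, Icam1 led with 25.6 to 38.9 CPM per kb over the 4 libraries, above the range of each of the other genes. Pecam1 (10.6 to 13.0), Selp (7.07 to 19.3), Cldn5 (8.16 to 13.3), Cdh5 (9.13 to 10.6) and Kdr (5.03 to 10.9 CPM per kb) followed in that order of their means. Each of these overlapped the next in range. Vcam1 spanned 0.887 to 8.33 CPM per kb, the widest relative range of the group, from below Flt4 in IgG replicate 1 to above Kdr in anti-PD-L1 replicate 1. Sele (1.51 to 2.93 CPM per kb) and Flt4 (1.51 to 1.94 CPM per kb) did not differ beyond their ranges. Prox1 was lowest, at 0.206 to 0.313 CPM per kb. These are lengths of all annotated exons, so a gene read mainly from a shorter transcript is placed too low.

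Promoter sequences are shown for the 3 adhesion genes that RefSeq's GRCm38.p6 table holds, for Cldn5, the barrier gene with lower values under anti-PD-L1, and for Kdr, which held the one match found. The motif searched, on both strands, was the NF-kB consensus, bound by a transcription factor family through which TNF induces adhesion genes. Each run is the 250 bases before the annotated start, 5′ to 3′ on the gene's strand, and capitals mark the match. They lie at chr9:21015690-21015939 for Icam1, chr1:164115014-164115263 for Selp, chr1:164047984-164048233 for Sele and chr16:18776597-18776846 for Cldn5, each on the plus strand, and at chr5:75978456-75978705 on the minus strand for Kdr.
Icam1: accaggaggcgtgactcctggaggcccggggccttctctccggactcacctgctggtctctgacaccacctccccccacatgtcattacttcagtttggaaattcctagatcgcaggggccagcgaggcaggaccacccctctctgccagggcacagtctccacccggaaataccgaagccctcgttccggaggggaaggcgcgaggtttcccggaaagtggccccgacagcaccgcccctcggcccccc
Selp: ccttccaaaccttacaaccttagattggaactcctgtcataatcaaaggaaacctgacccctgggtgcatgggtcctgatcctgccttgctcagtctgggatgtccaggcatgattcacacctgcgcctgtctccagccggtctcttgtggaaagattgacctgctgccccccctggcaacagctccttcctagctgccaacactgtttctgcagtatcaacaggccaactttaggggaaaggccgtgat
Sele: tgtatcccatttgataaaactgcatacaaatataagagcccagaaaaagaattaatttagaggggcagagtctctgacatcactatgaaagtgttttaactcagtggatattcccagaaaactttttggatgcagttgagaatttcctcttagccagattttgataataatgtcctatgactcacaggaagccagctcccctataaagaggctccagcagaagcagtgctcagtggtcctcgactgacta
Cldn5: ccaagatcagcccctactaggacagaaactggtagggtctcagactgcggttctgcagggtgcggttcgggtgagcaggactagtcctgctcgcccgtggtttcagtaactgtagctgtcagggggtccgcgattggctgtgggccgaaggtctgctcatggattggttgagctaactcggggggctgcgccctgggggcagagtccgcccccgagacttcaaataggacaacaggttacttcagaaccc
Kdr: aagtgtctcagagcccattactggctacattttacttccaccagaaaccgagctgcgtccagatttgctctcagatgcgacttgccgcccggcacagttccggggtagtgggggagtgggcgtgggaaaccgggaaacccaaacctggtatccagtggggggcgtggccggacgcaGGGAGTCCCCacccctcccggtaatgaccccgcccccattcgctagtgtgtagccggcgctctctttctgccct

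Of the 7 genes with an entry (Icam1, Selp, Sele, Cldn5, Kdr, Flt4 and Prox1), Kdr alone held the NF-kB consensus, 74 to 65 bases before the start, where it matched on both strands. Of 32851 promoter windows of this length, 7.25% held it. The pattern was GGGRNNYYCC, where R is A or G, Y is C or T and N is any base. Sites that depart from it, such as those that begin with GG and not GGG, were not counted. These letters describe the windows only, and a window without a match says nothing of the factor.

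Vcam1 encodes the endothelial ligand of the leukocyte integrin VLA-4. It lies on chromosome 3 from 116109949 to 116129688 (GRCm38, minus strand) and had 629 and 1772 counts with IgG and 5427 and 5423 with anti-PD-L1. In normalized units these were 7.87 and 23.3 CPM versus 73.9 and 66.9 CPM. Both anti-PD-L1 libraries were high and near each other, IgG replicate 1 was the lowest, and the groups did not overlap. The fitted log2 fold change was 2.18 ± 0.56 (SE, n = 2 per group), a 4.52-fold higher level, with a 95% interval of 0.68 to 3.67 and an edgeR adjusted p of 0.469. DESeq2 gave an adjusted p of 0.00367. A fit with a library left out keeps 1 library in a group, so only its log2 fold change is given. The size rested on the IgG libraries, since the log2 fold change came to 1.58 when IgG replicate 1 was left out and to 3.16 when IgG replicate 2 was (edgeR). Without anti-PD-L1 replicate 1, the library of differing sex, it was 2.10 (edgeR).

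VCAM-1 is also made by macrophages and stromal cells, so the marker genes of leukocytes were set beside it. Of 14 leukocyte genes, 10 had both anti-PD-L1 values over both IgG values, where 16.5% of genes tested had that order. DESeq2 called 10 higher, where it called 2.93% of genes tested, and edgeR called 0. The median log2 fold change was 2.00. Their summed level was 107 and 194 CPM with IgG and 430 and 424 CPM with anti-PD-L1, and none of the 14 was at 0. Ptprc, the gene of the pan-leukocyte protein CD45, had 11.4 and 42.6 CPM versus 99.1 and 112 CPM. On the log2 scale, as a deviation from the mean of the 4 libraries, Vcam1 stood at −1.97, −0.41, 1.26 and 1.12 and the mean of the leukocyte list at −1.58, −0.45, 1.08 and 0.95, in the order IgG replicates 1 and 2 and anti-PD-L1 replicates 1 and 2. The part of leukocyte content in the Vcam1 difference was not tested. Profiles over the 4 libraries were compared among tested genes with a mean of at least 1 CPM and no provisional symbol. The 3 nearest to Vcam1 were Snx20, Cd3d and Gzmk, at Euclidean distances of 0.17, 0.17 and 0.20 in log2 units. Cd3d, a chain of the T cell receptor complex, had 1.84 and 4.85 CPM versus 14.8 and 14.3 CPM.

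**Figure D2:**
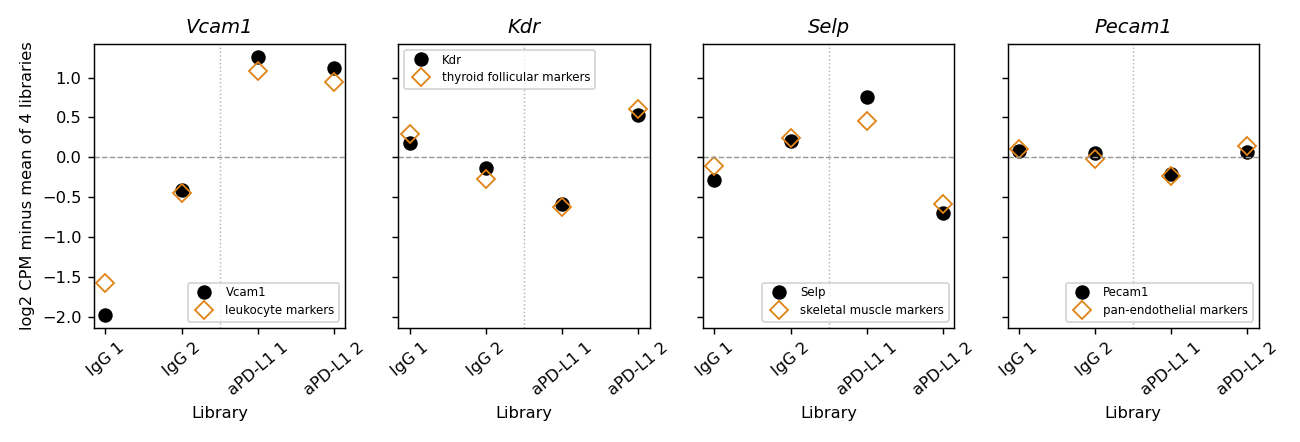
Deviation of log2 CPM from the mean of the 4 libraries, for Vcam1, Kdr, Selp and Pecam1 (black circles) and for the mean of a list of marker genes (orange diamonds), with IgG libraries left of the dotted line and anti-PD-L1 libraries right of it. Vcam1 ran from −1.97 to 1.26 beside the leukocyte list, and Pecam1 stayed between −0.21 and 0.084 beside the general endothelial list. The lists beside Kdr and Selp were chosen after the values of these genes were seen.

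Icam1 encodes the ligand of the beta2 integrins LFA-1 and Mac-1 and, besides endothelium, is made by epithelial cells and leukocytes. It lies on chromosome 9 from 21015985 to 21028817 (plus strand) and had 139 and 112 CPM with IgG and 144 and 169 CPM with anti-PD-L1. The groups did not overlap, but IgG replicate 1 and anti-PD-L1 replicate 1 were close to each other. It was 0.44 on the log2 scale without anti-PD-L1 replicate 1 and 0.17 without IgG replicate 2 (edgeR). The log2 fold change was 0.32 ± 0.22 (SE, n = 2 per group), with a 95% interval of −0.26 to 0.90 and an edgeR adjusted p of 1.00. Icam1 was not called at the threshold, and its unadjusted edgeR p was 0.204. Its nearest profiles were those of Svs1, Dpysl2 and Zfp459 (distances of 0.021, 0.029 and 0.033). Whether Vcam1 and Icam1 differed in their response was not tested.

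The selectin genes showed no common order of the groups. Selp, the gene of P-selectin in endothelium and platelets, lies on chromosome 1 from 164115264 to 164150026 and had 41.4 and 58.3 CPM under IgG against 85.4 and 31.2 CPM under anti-PD-L1. The highest and the lowest value of the 4 both came from anti-PD-L1 mice. The log2 fold change was 0.23 ± 0.53 (SE, n = 2 per group; edgeR adjusted p = 1.00), and it was −0.68 without anti-PD-L1 replicate 1 and 0.76 without anti-PD-L1 replicate 2 (edgeR). Sele, the gene of E-selectin, made by cytokine-activated endothelium, lies next to it from 164048234 to 164057677 and had 4.40 and 6.34 CPM versus 4.97 and 8.53 CPM. Anti-PD-L1 replicate 2 was highest and the groups overlapped. Its log2 fold change was 0.33 ± 0.37 (SE, n = 2 per group; edgeR adjusted p = 1.00), and it turned to −0.13 without anti-PD-L1 replicate 2 (edgeR).

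Platelet genes and muscle genes were read beside Selp. Of 10 platelet genes 6 were in the table, with a summed level of 37.7 and 29.0 CPM versus 38.9 and 25.6 CPM and a median log2 fold change of −0.099. The mean of the 12 skeletal muscle genes deviated by −0.11, 0.24, 0.45 and −0.59 in the order given above, and Selp by −0.28, 0.21, 0.76 and −0.69. This list was chosen for Selp after its values were seen, and its part in the Selp values was not tested. Tmem132d, Magix and Fam131a had the profiles nearest to Selp (distances of 0.072, 0.072 and 0.075). Slc1a6, Nphp4 and Trim36 were nearest to Sele (0.087, 0.13 and 0.13).

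Claudin-5, encoded by Cldn5, is the main claudin of endothelial tight junctions. Cldn5 lies on chromosome 16 from 18776847 to 18778262 and had 1416 and 1437 counts with IgG and 849 and 936 with anti-PD-L1. In normalized units these were 17.7 and 18.9 CPM versus 11.55 and 11.55 CPM. The replicates of each group lay close together and the groups did not overlap. The log2 fold change was −0.66 ± 0.16 (SE, n = 2 per group), a level 0.632 times that of IgG, with a 95% interval of −1.08 to −0.25 and an edgeR adjusted p of 0.407. DESeq2 gave an adjusted p of 0.0444, and this call was lost with each library left out in turn (adjusted p from 0.169 to 1.00). The log2 fold change itself stayed between −0.73 and −0.62 with each library left out, anti-PD-L1 replicate 1 among them.

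Pecam1 and Cdh5, the other junction genes, had similar levels in both groups. Pecam1 encodes PECAM-1 (CD31), found at endothelial junctions and on platelets and leukocytes, and lies on chromosome 11 from 106654217 to 106750628. It had 81.1 and 79.3 CPM under IgG against 66.3 and 80.3 CPM under anti-PD-L1, a log2 difference of −0.13 ± 0.17 (SE, n = 2 per group; edgeR adjusted p = 1.00). Cdh5 encodes VE-cadherin, the adherens junction protein of endothelium, and lies on chromosome 8 from 104101625 to 104144511. It had 44.5 and 43.2 CPM versus 38.4 and 44.5 CPM, which gave −0.082 ± 0.15 for the log2 fold change (SE, n = 2 per group; edgeR adjusted p = 1.00). For both genes anti-PD-L1 replicate 1 was the low library and the other 3 were close. The 95% intervals ran from −0.59 to 0.33 for Pecam1 and from −0.49 to 0.32 for Cdh5, and without anti-PD-L1 replicate 1 their log2 fold changes were 0.0019 and 0.021 (edgeR).

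**Figure D3:**
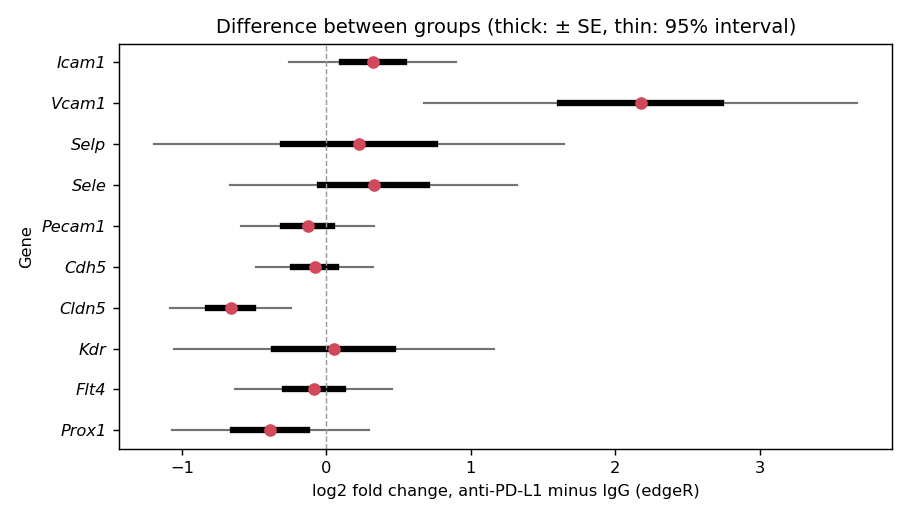
Log2 fold change of each gene, anti-PD-L1 minus IgG, from edgeR (points), with ± 1 SE (thick lines) and the 95% interval (thin lines). The intervals of Vcam1 (0.68 to 3.67) and Cldn5 (−1.08 to −0.25) lie to one side of 0 before adjustment, and those of the other 8 genes include 0.

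The VEGF receptor genes differed in how far their replicates spread. Kdr, the gene of VEGFR2, the main growth receptor of blood vessel endothelium, lies on chromosome 5 from 75932827 to 75978458. It had 76.8 and 61.9 CPM with IgG and 45.4 and 98.3 CPM with anti-PD-L1, so that both extremes came from anti-PD-L1. The log2 fold change was 0.052 ± 0.41 (SE, n = 2 per group; edgeR adjusted p = 1.00), with a 95% interval of −1.05 to 1.16. It was 0.50 without anti-PD-L1 replicate 1 and −0.62 without anti-PD-L1 replicate 2 (edgeR). Thyroid follicular genes varied in the same libraries, with a mean deviation over 11 genes of 0.29, −0.27, −0.62 and 0.60 on the log2 scale in the order given above, where Kdr had 0.18, −0.13, −0.58 and 0.53. The follicular list was set beside Kdr after its values were seen. Adipocyte genes (0.22, 0.038, −0.88 and 0.62) and the general endothelial list (0.11, −0.019, −0.23 and 0.14) had the same order of libraries. The part of each list in the Kdr values was not tested. The 3 genes nearest to Kdr in profile were Galns, Foxe1 and Antxr1 (distances of 0.040, 0.069 and 0.086, named after their values were seen). Of these, Foxe1 is a thyroid transcription factor gene. Flt4, the gene of VEGFR3, lies on chromosome 11 from 49609263 to 49652739 and had 15.9 and 14.2 CPM versus 12.4 and 15.9 CPM. Its log2 fold change was −0.087 ± 0.20 (SE, n = 2 per group; edgeR adjusted p = 1.00), and 0.083 without anti-PD-L1 replicate 1 (edgeR).

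Prox1 directs lymphatic endothelial identity and is also made by skeletal muscle. It lies on chromosome 1 from 190118035 to 190170714 and was the gene of lowest count, with 197 and 200 counts under IgG against 127 and 175 under anti-PD-L1. These were 2.46 and 2.63 CPM versus 1.73 and 2.16 CPM. Both anti-PD-L1 values were under both IgG values. A log2 difference of −0.39 ± 0.26 (SE, n = 2 per group) had a 95% interval of −1.07 to 0.29 and did not pass (edgeR adjusted p = 1.00). It was −0.24 without anti-PD-L1 replicate 1 and −0.57 without anti-PD-L1 replicate 2 (edgeR).

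Other lymphatic endothelial genes were compared in a list of 12, of which 11 were in the table. None was called by edgeR or DESeq2, and 1 (Mmrn1) was lower at an unadjusted edgeR p under 0.05, where 1.1% of genes tested were. Both anti-PD-L1 values were under both IgG values for 6 and above for 1. Of all genes tested, 13.1% had the first order and 16.5% the second. The median log2 fold change was −0.44, against 0.00021 over all genes tested. Lyve1, a hyaluronan receptor of lymphatic endothelium and some macrophages, had 12.6 and 9.81 CPM versus 7.98 and 7.58 CPM. Mmrn1, the gene of multimerin 1, had 16.7 and 14.1 CPM versus 10.5 and 10.4 CPM, which gave −0.56 ± 0.18 for the log2 fold change (SE, n = 2 per group; edgeR adjusted p = 0.65). Their values had been seen when Lyve1 and Mmrn1 were chosen. The 3 list genes of highest level, Gja1, Tbx1 and Nrp2, are also made by other cells, and Gja1 had 142 and 70.0 CPM versus 65.0 and 43.9 CPM. Flt4, the lymphatic receptor gene, did not share the lower values, with anti-PD-L1 replicate 2 level with IgG replicate 1 at 15.9 CPM.

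**Figure D4:**
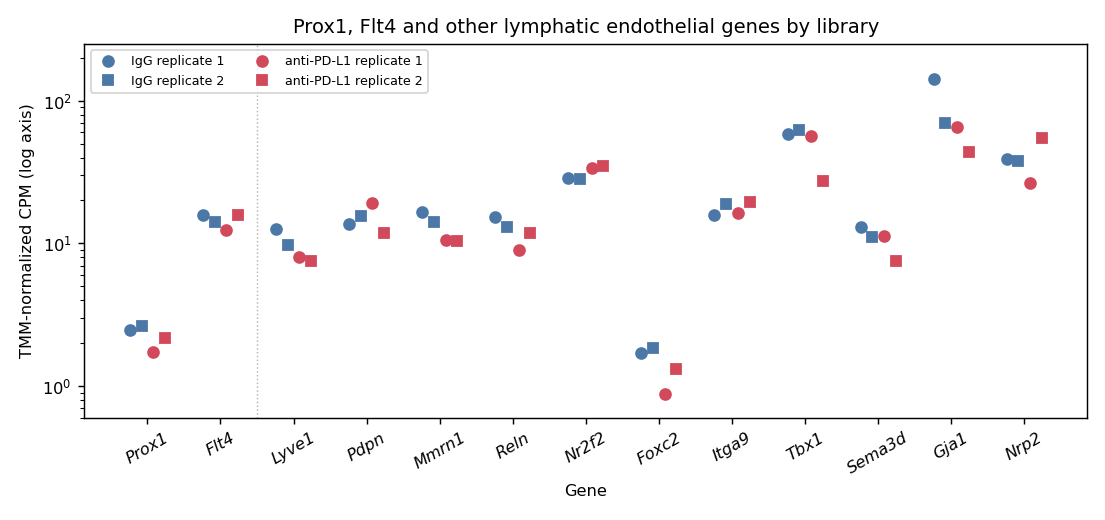
Level of Prox1, Flt4 and 11 other lymphatic endothelial genes in each library, in CPM on a log axis, with IgG in blue and anti-PD-L1 in red. Prox1, Lyve1, Mmrn1, Reln, Foxc2, Tbx1 and Gja1 had both anti-PD-L1 points below both IgG points, Nr2f2 had both above, and Flt4, Pdpn, Itga9, Sema3d and Nrp2 overlapped.

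The 10 genes were next read against general endothelial genes, by subtracting the mean log2 CPM of the 30-gene endothelial list, which holds none of the 10, in each library. That mean was 3.89 and 3.76 with IgG and 3.55 and 3.92 with anti-PD-L1. The list's median log2 fold change was −0.092, with 0 genes called by edgeR or DESeq2. In CPM, 6 of the 30 had both anti-PD-L1 values under both IgG values and 2 had both over. Of all genes tested, 13.1% had the first order and 16.5% the second. Flt4 stayed at 0.10, 0.073, 0.088 and 0.075 above the list mean in the order given above. Pecam1 lay between 2.41 and 2.55 and Cdh5 between 1.55 and 1.72 in the 4 libraries, so these 3 genes kept a near constant level relative to other endothelial genes, anti-PD-L1 replicate 1 included. Vcam1 stood at −0.91 and 0.78 under IgG against 2.66 and 2.14 under anti-PD-L1, a difference of 2.46. Icam1 stood at 3.23 and 3.04 versus 3.62 and 3.48, and Cldn5 at 0.26 and 0.48 against −0.014 and −0.39. Prox1 also kept groups that did not overlap, at −2.57 and −2.35 against −2.74 and −2.79. Selp, Sele and Kdr overlapped between groups on this scale too. The share of all genes without overlap was not worked out on this scale. Over the 10 genes the median difference was 0.025. These differences were not tested as such. With the libraries scaled to the endothelial list, edgeR called 0 of the 10 genes, with log2 fold changes of 2.26 ± 0.61 for Vcam1 (SE, n = 2 per group; edgeR adjusted p = 0.546) and −0.56 ± 0.26 for Cldn5 (edgeR adjusted p = 1.00).

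**Figure D5:**
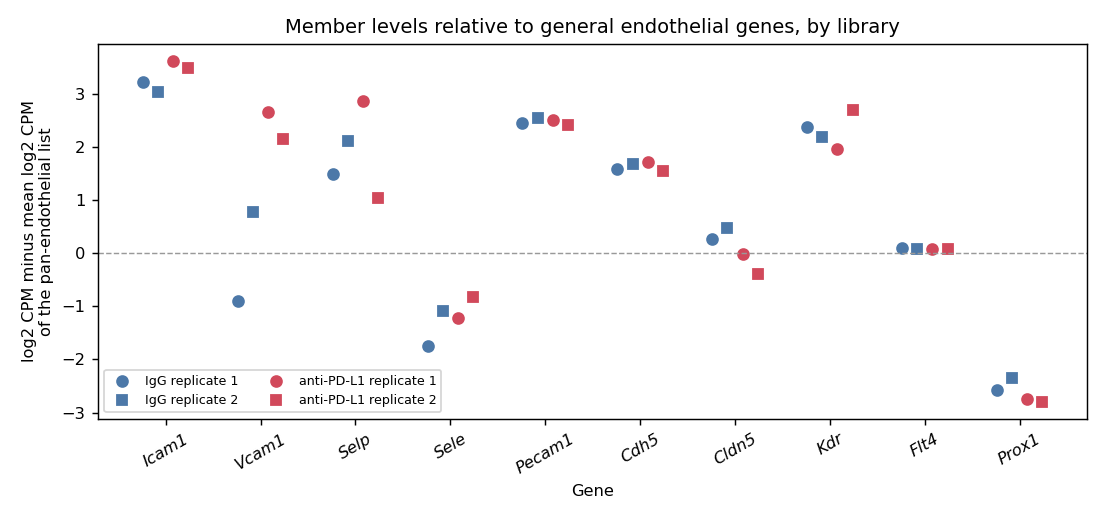
Log2 CPM of each gene minus the mean log2 CPM of 30 general endothelial genes, in each library, with IgG in blue and anti-PD-L1 in red and the dashed line at the list mean. Flt4, Pecam1 and Cdh5 stayed level across the 4 libraries, while Vcam1 ran from −0.91 to 2.66.

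Among the 10 genes themselves, the closest profiles of 45 pairs were those of Pecam1 and Cdh5 (distance 0.068 in log2 units over 4 libraries), Pecam1 and Flt4 (0.11) and Cdh5 and Flt4 (0.13). Vcam1 and Cldn5 were farthest apart (3.21).

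The leukocyte side of adhesion was covered by 13 receptor genes. Both anti-PD-L1 values were above both IgG values for 7 and below for 0, where 16.5% and 13.1% of genes tested had these orders. DESeq2 called 6 higher, where it called 2.93% of genes tested, and edgeR called 0. The median log2 fold change was 1.03. Itgb2, the shared chain of the beta2 integrins that bind ICAM-1, had 9.10 and 21.5 CPM versus 79.8 and 83.5 CPM, which gave 2.42 ± 0.46 for the log2 fold change (SE, n = 2 per group; edgeR adjusted p = 0.277). Itgax, a beta2 partner of dendritic cells and macrophages, had 3.30 and 10.4 CPM versus 40.5 and 43.6 CPM (adjusted p = 0.392 by edgeR). Spn, the gene of CD43, had 0.388 and 0.499 CPM versus 1.21 and 2.21 CPM (adjusted p = 0.392 by edgeR). Selplg, the gene of the P-selectin ligand PSGL-1, had 5.24 and 15.0 CPM versus 50.5 and 56.8 CPM. Itga4, the VLA-4 chain that binds VCAM-1, had 39.4 and 50.7 CPM versus 41.8 and 77.8 CPM and overlapped. The values of Selplg and Itga4 had been seen before these genes were chosen. The leukocyte list had its higher values in the same 2 libraries, and their part in these values was not tested.

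Cytokines known to activate endothelium and their receptors formed a list of 16, of which 13 were in the table. Of these, 7 had both anti-PD-L1 values over both IgG values and 0 below, where 16.5% and 13.1% of genes tested had these orders. DESeq2 called 2 higher, where it called 2.93% of genes tested, and edgeR called 0. The median log2 fold change was 0.47. Ifng, the interferon gamma gene, had 1.15 and 1.35 CPM versus 2.84 and 2.95 CPM, which gave 1.21 ± 0.25 for the log2 fold change (SE, n = 2 per group; edgeR adjusted p = 0.322 and DESeq2 adjusted p = 0.0284). Tnfrsf1b, the gene of TNF receptor 2, had 5.93 and 13.0 CPM versus 33.2 and 39.6 CPM (adjusted p = 0.359 by edgeR and DESeq2 adjusted p = 0.00124). Ifngr1, a chain of the interferon gamma receptor, had 43.9 and 47.4 CPM versus 63.4 and 65.5 CPM (adjusted p = 0.54 by edgeR). Tnf, chosen after its values were seen, had 1.49 and 1.75 CPM versus 3.51 and 0.987 CPM, so the groups overlapped.

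Other adhesion genes of the vessel wall showed little difference. Of 13 in the table, 1 had both anti-PD-L1 libraries above and 1 had both below, where 16.5% and 13.1% of genes tested did. None was called by edgeR or DESeq2, and the median log2 fold change was 0.050. Icam2, a constitutive endothelial relative of Icam1, had 4.68 and 6.09 CPM versus 7.24 and 7.74 CPM (adjusted p = 1.00 by edgeR). Cx3cl1, the gene of the membrane chemokine fractalkine, had 41.9 and 40.01 CPM versus 29.2 and 37.5 CPM. Glycam1, the gene of a selectin ligand of high endothelial venules, had 39.1 CPM in IgG replicate 2 and 0.716 to 4.86 CPM in the other 3 libraries.

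Other junction and barrier genes, connexin genes and Plvap among them, were covered by a list of 18, several of which epithelial cells share. None was called by edgeR or DESeq2, and the median log2 fold change was −0.19. Both anti-PD-L1 libraries were above for 2 and below for 3, where 16.5% and 13.1% of genes tested had these orders. Ocln, the gene of the tight junction protein occludin, had 33.1 and 23.3 CPM versus 18.8 and 20.8 CPM, which gave −0.51 ± 0.23 for the log2 fold change (SE, n = 2 per group; edgeR adjusted p = 0.974). Jup, the gene of plakoglobin, had 386 and 211 CPM versus 222 and 153 CPM. Gja4, an arterial connexin gene, had 7.73 and 7.98 CPM versus 9.95 and 13.6 CPM (adjusted p = 0.872 by edgeR). Genes of squamous and gland epithelium and cartilage next to the thyroid were uneven between libraries, with a summed level over 12 genes of 13443 and 16148 CPM under IgG against 21409 and 8018 CPM, and their part in the junction values was not tested.

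The VEGF and angiopoietin system was covered by 13 genes in the table. None was called by edgeR or DESeq2, and the median log2 fold change was −0.0095. Both anti-PD-L1 libraries were above for 3 and below for 0, where 16.5% and 13.1% of genes tested had these orders. The 3 were Pgf, Angpt1 and Ccbe1. Pgf, the gene of placental growth factor, had 18.4 and 16.7 CPM versus 20.3 and 24.6 CPM (log2 fold change 0.36 ± 0.18, SE, n = 2 per group; edgeR adjusted p = 1.00). Ccbe1, whose product helps to activate the lymphatic growth factor VEGF-C, had 4.24 and 3.56 CPM versus 4.64 and 5.97 CPM. Angpt1, the gene of the TIE2 ligand angiopoietin-1, had 6.75 and 6.25 CPM versus 8.66 and 7.22 CPM.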

How the data were processed

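Thyroid RNA of 4 mice was sequenced as paired 150 bp reads after poly(A) selection, per the labels' protocols. The authors deposited 1 table of expected counts without normalization, keyed by gene symbol. BWA and mm10 are named in the submitters' processing notes, with no role or version; the counting program, annotation and strand setting were not given in the sources used here. Without the strand, reads of Icam1, Vcam1, Selp and Prox1 cannot be told from those of the antisense genes overlapping their exons. Every gene of the table has a count of at least 100 in some library, and 13 blank cells were read as 0.

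Counts were rounded and fitted with edgeR 4.0.16 in R 4.3.3 (filterByExpr, 16217 of 16218 genes kept, TMM factors, robust quasi-likelihood F test on group, two-sided, Benjamini-Hochberg over all genes tested, threshold 0.05, residual degrees of freedom 2). The SE is the absolute log2 fold change over the square root of F, and the 95% interval uses the test's total degrees of freedom. CPM are TMM-normalized; 3 counts are 0.0370 to 0.0408 CPM, for counting error only. Log2 CPM used a prior count of 2. As a check for a library deposited under 2 names, replicates differed beyond sampling noise (chi-square over its degrees of freedom was 321 between the IgG libraries and 1056 between the others). The steps were tested on simulated data. Alternatives were other scalings and filters, DESeq2 1.42.0, limma voom (limma 3.58.1), the replicate number as a block and each library left out; DESeq2 with each library left out was added after seeing the data.

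Coordinates and exon lengths are from GENCODE M21 (GRCm38, the assembly of mm10). The members and the gene lists were chosen with earlier results of these data known. Named genes are the 10 members, the 3 genes nearest in profile to each adhesion gene, up to 3 genes of smallest p of each list of related genes and the most abundant of the cell type lists. The nearest genes were sought among those with a mean of at least 1 CPM and no provisional symbol, such as Gm followed by digits. Other genes are said to be chosen after their values were seen. Of the promoter motifs planned, only the NF-kB consensus is reported here.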

Additional observations from a re-analysis of the deposited data

How the results depend on the processing

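Icam1, Vcam1, Cldn5 and Prox1 kept their direction under all 17 alternatives. DESeq2 called 1 gene higher and 1 lower. With all libraries edgeR called 0 higher and 0 lower. Fits with a library left out keep 1 library in a group, so their calls are no check on replication and are not given. With each library left out the median log2 fold change of the 10 genes ranged from −0.25 (without anti-PD-L1 replicate 2) to 0.052, and the median relative to the endothelial list from −0.045 (without anti-PD-L1 replicate 1) to 0.044; with the list's median as the reference it was 0.10. Over the edgeR and DESeq2 fits with a library left out, both signs occurred for Selp (−0.68 to 0.77), Kdr (−0.62 to 0.50) and Sele (−0.13 to 0.67). The same held for Flt4 (−0.29 to 0.083), Cdh5 (−0.20 to 0.021) and Pecam1 (−0.29 to 0.0019). The same omissions gave, by edgeR, 0.76 for Selp without anti-PD-L1 replicate 2. By DESeq2 they gave −0.012 for Selp without IgG replicate 1, −0.099 for Kdr without IgG replicate 2, 0.019 for Cdh5 and 0.081 for Flt4 without anti-PD-L1 replicate 1, and −0.12 for Sele and −0.24 for the median without anti-PD-L1 replicate 2. Cdh5 was also 0.0062 when scaled to the endothelial list, a scaling that moved the median of all genes to 0.10, and Kdr was −0.052 with limma voom. With the replicate block Kdr was −0.045, Vcam1 2.37 (edgeR adjusted p = 0.382) and Cldn5 −0.66 (edgeR adjusted p = 0.595), with 0 calls. Replicate numbers are not stated to pair mice, and the correlation of same-numbered deviations was 0.0998. At these depths the number of mice, not counting error, limits each comparison.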

Other observations

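Mural cells, the pericytes and smooth muscle that wrap vessels, showed no common difference. Of 12 genes none was called by edgeR or DESeq2, and the median log2 fold change was 0.0012. Both anti-PD-L1 values were over both IgG values for 0 (16.5% of all genes tested) and under for 1 gene (13.1%). That gene was Notch3, a receptor of arterial smooth muscle named after its values were seen, with 85.6 and 67.2 CPM versus 64.0 and 55.3 CPM. Rgs5, a pericyte gene chosen after its values were seen, had 45.6 and 43.1 CPM versus 44.1 and 53.2 CPM. Adipocyte genes had a median of −0.020 over 8 genes and a summed level of 961 and 787 CPM versus 497 and 1174 CPM, lowest in anti-PD-L1 replicate 1, as were Kdr and Pecam1. C cell and parathyroid genes had a median of 0.093 over 9 genes and muscle genes one of −0.078 over 12. Follicular genes had a median of −0.029 over 11 and the epithelium and cartilage genes one of −0.76 over 12.

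Among general endothelial genes, Plvap, which forms the diaphragms of fenestrated capillaries, had 85.5 and 75.4 CPM versus 81.7 and 114 CPM. Vwf, the von Willebrand factor gene, chosen after its values were seen, had 54.3 and 56.8 CPM versus 34.3 and 51.3 CPM, with both anti-PD-L1 values under both IgG values (log2 fold change −0.38 ± 0.24, SE, n = 2 per group; edgeR adjusted p = 1.00).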
